A study of Mus musculus with 49 samples.

Results

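The mitochondrial respiratory chain is described here through the 85 nuclear genes whose symbols name a subunit of its complexes: Ndufa, Ndufb, Ndufc, Ndufs and Ndufv followed by a digit (complex I, 38 genes), Sdha to Sdhd (complex II, 4), Uqcr (complex III, 8), Cox4 to Cox8 (complex IV, 18) and Atp5 (complex V, 17). They were picked by symbol alone among 24475 genes counted in skin and colon of the mouse, with earlier results of these data known. A filter on low counts left 82 of them in skin, 81 in colon, 80 in both tissues and 83 in a fit of both tables together. Cox7b2, Cox8c and Ndufs5 were not tested in skin, and Cox6a2, Cox7b2, Cox8b and Cox8c not in colon. The symbol and not the protein set the complex: Ndufa4 and Ndufa4l2 are counted with complex I although their proteins are now placed with complex IV.

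All libraries came from mice of a DITRA model (deficiency of the interleukin-36 receptor antagonist, the natural brake on interleukin-36 signalling), strain 75% C57BL/6NTac 25% 129S6/SvEvTac, and controls carry that background too. The labels used here name neither the alleles nor ages. Imiquimod (IMQ), which activates Toll-like receptors, was used to inflame the skin, and dextran sulfate sodium (DSS), which injures the gut lining, to inflame the colon. Inflamed mice received PBS, a monoclonal antibody against the human IL-36 receptor (below anti-IL-36R), or 1 against IL-12p40 of the mouse (below anti-IL-12p40), which blocks the subunit common to interleukin-12 and interleukin-23. In the order water with PBS, inflamed with PBS, inflamed with anti-IL-36R and inflamed with anti-IL-12p40, the groups held 3, 6, 7 and 7 skin libraries and 5, 6, 8 and 7 colon libraries. Replicates are numbered by order of deposit, and nothing in the labels says whether they came from separate animals, so the p-values measure only the spread between these libraries.

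The respiratory chain is the set of protein complexes in the inner mitochondrial membrane that passes electrons from NADH and succinate to oxygen and uses the resulting proton gradient to make ATP. Complex I oxidises NADH, complex II oxidises succinate and is also an enzyme of the tricarboxylic acid cycle, complex III passes electrons to cytochrome c, complex IV reduces oxygen and complex V is the ATP synthase. Most subunits are encoded in the nucleus and some in mitochondrial DNA. Colonocytes, the absorptive cells of the large intestine, are known to draw much of their energy from oxidation of butyrate, while keratinocytes of the epidermis rely strongly on glycolysis. Several complex IV subunits exist as pairs of genes, 1 expressed widely and the other in heart, skeletal muscle, brown fat, lung or testis.

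The 23 skin libraries held 14.72 M to 19.68 M expected counts each, and the 26 colon libraries 15.08 M to 18.66 M. Marker genes matched the tissue labels: summed keratinocyte markers stood at 30650 to 70140 CPM (counts per 1 M of the TMM-adjusted library total) in skin libraries, and summed colonocyte markers at 5.77 to 17.3 CPM there but at 1937 to 13960 CPM in colon. In the colon, DSS PBS libraries 5 and 6 stood apart from the other 4 of their group. Their summed colonocyte markers were 3975 and 1937 CPM against 7537 to 9315 CPM, their summed fibroblast markers 14930 and 12710 CPM against 4491 to 8791 CPM, and library 6 held 2718 CPM of keratinocyte markers, which reached at most 29.6 CPM in any other colon library. Results under DSS are therefore also given from libraries 1 to 4 alone or without library 6 where the change is described. In whole tissue, fewer cells of a type and less RNA per cell cannot be told apart.

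Promoter sequences (RefSeq, GRCm38.p6, 250 bases before to 50 bases after the gene start) were found for 68 of the 85 genes and were searched on both strands for 5 short motifs tied to control of respiratory genes. CGCATGCG, bound by NRF1, was in 9 of the 68 (13.2%), in 2.07% of all 27025 genes with a promoter and in 3.58% of the 12982 among them that passed the filter on low counts. AAGATGGC, bound by YY1, was in 10 (14.7%) against 3.19% and 4.4%, and TCAAGGTCA, bound by ERRA, in 2 (2.94%) against 0.466% and 0.3%. CCGGAAGT, bound by ETS factors, was in 5 (7.35%) against 4.31% and 7.48%, and ACGTG, the core of the hypoxia element, in 17 (25.0%) against 21.8% and 27.2%, so these shares were no higher than among genes that passed the filter. A match is a description of the letters and does not show a site in use. Windows of 6 genes named in the results below follow. Each reads 5′ to 3′ on the gene's strand, with the motif in capitals. Those of Ndufa8 and Atp5g1 end at the start. Those of Uqcrc1 and Sdhd run from 20 to 50 bases after the start and that of Ndufs7 from 13 to 43 after it. That of Sdha runs from 150 to 50 bases before the start.
Ndufa8 (chr2:36049339-36049438, minus strand, the 100 bases before the start, NRF1): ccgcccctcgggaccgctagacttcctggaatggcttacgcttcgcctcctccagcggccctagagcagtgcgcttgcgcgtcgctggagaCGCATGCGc
Uqcrc1 (chr9:108936668-108936697, plus strand, 30 bases after the start, NRF1): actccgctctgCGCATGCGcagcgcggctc
Ndufs7 (chr10:80249462-80249491, plus strand, 30 bases after the start, YY1): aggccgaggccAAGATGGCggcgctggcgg
Sdhd (chr9:50603800-50603829, minus strand, 30 bases after the start, ERRA on the other strand): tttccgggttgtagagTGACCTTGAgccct
Atp5g1 (chr11:96075632-96075731, minus strand, the 100 bases before the start, hypoxia element, of which the second copy reads the same on both strands): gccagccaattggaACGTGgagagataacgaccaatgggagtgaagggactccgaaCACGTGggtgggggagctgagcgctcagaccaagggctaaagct
Sdha (chr13:74350291-74350390, minus strand, a window of 100 bases before the start, hypoxia element): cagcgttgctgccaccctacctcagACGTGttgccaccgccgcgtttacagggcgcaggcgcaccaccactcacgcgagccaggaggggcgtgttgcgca
Of 28 genes with a promoter that fell under DSS (described below), 2 held the NRF1 motif, 4 the YY1 motif and 7 the hypoxia core, and of 37 genes whose change was not past the threshold 7, 6 and 9 did.

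In water controls the chain was expressed at higher levels in colon than in skin. The median log2 CPM over the genes of the chain was 6.03, 6.14 and 6.07 in the 3 skin libraries and 6.73, 6.61, 6.67, 6.91 and 7.23 in the 5 colon libraries, so the tissues did not overlap, and colon library 5 was the highest. Of 83 genes in the fit of both tables, 58 were lower and 5 higher in skin (edgeR quasi-likelihood test, Benjamini-Hochberg adjusted p under 0.05 over all 16818 genes, the threshold used throughout). Of all genes 66.0% differed, with 32.7% of all genes higher and 33.3% lower in skin. The median difference over the chain, skin minus colon, was -0.50 on the log2 scale. Tissue, experiment and sequencing run cannot be told apart in this contrast. CPM here and below were scaled within each tissue, so skin and colon CPM are not on a common scale. The log2 differences between tissues come from the joint fit.

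Complex II showed the difference in all 4 of its subunits, with a median of -1.15. Sdhd, a membrane anchor of the complex, was lower in skin by -1.73 ± 0.19 (log2 difference ± SE, adjusted p 1.07e-10), and Sdha, the flavoprotein that oxidises succinate, by -1.19 ± 0.12 (adjusted p 2.45e-11). Per kilobase of transcript (median length of the gene's GENCODE transcripts), Sdha stood at 57.1 CPM in water skin and 143 CPM in water colon, and Sdhd at 45.5 and 165 CPM. The order within the complex thus differed, with Sdhd the most abundant subunit in colon and the third of 4 in skin.

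The 5 genes higher in skin were Cox6a2, Ndufa4l2, Cox8b, Ndufa4 and Ndufb2. Cox6a2 and Cox8b, the muscle forms of 2 complex IV subunits, exceeded colon by 6.46 ± 0.54 and 4.45 ± 0.60 on the log2 scale. The widely expressed partners were nevertheless more abundant in both tissues per kilobase: in water skin Cox6a1 stood at 198 CPM per kb against 30.9 for Cox6a2, Cox8a at 170 against 24.6 for Cox8b, Cox4i1 at 278 against 2.96 for the lung and hypoxia form Cox4i2, Cox6b1 at 225 against 3.92 for the testis form Cox6b2, and Cox7a2 at 115 against 11.3 for the muscle form Cox7a1. In water colon Cox4i1 reached 596 CPM per kb and Cox4i2 1.75, while Cox7a1, at 42.5, was higher than in skin. Summed skeletal muscle markers in water skin were 4010, 3867 and 8384 CPM in libraries 1 to 3; their part in these levels was not tested. For the 3 genes of the ATP synthase c subunit, which encode the same mature protein, the order was Atp5g3 over Atp5g2 over Atp5g1 in both tissues, at 248, 124 and 25.1 CPM per kb in skin and 426, 194 and 48.6 in colon.

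Of the whole chain Atp5b, the catalytic beta subunit of ATP synthase, was the most abundant gene per kilobase in both tissues, at 453 CPM per kb in water skin and 646 in water colon. Ndufs5, a complex I subunit, was at or near 0 in nearly every library, while its transcribed pseudogene Ndufs5-ps stood at 31.5 to 65.0 CPM; reads of this pair cannot be told apart. Counts were fractional, a sign of reads split with relatives, in over 50% of libraries for Atp5j2, Cox7c, Ndufa4, Ndufa4l2 and Ndufa7 in skin and for Atp5j2, Cox7c and Ndufa7 in colon.

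**Figure D1:**
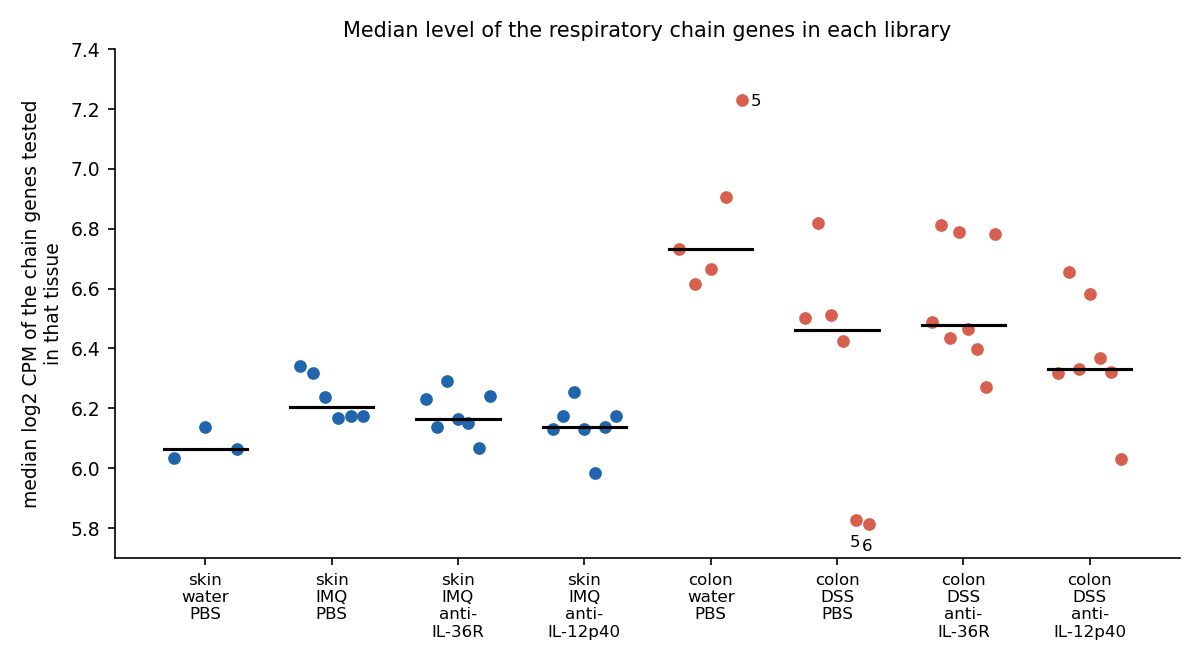
Median log2 CPM over the respiratory chain genes (y axis) in each library, by group (x axis); a point is 1 library, a bar the group median, and numbers mark colon water library 5 and DSS PBS libraries 5 and 6. The skin groups lie between 5.99 and 6.34, colon water controls between 6.61 and 7.23, and DSS PBS libraries 5 and 6 are the lowest colon points at 5.83 and 5.81.

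Under DSS many genes of the chain fell in colon. Of 81 genes, 36 fell and 3 rose against water controls. Of all genes 32.2% changed, with 14.6% of all genes down and 17.6% up. The log2 fold change was below 0 for 77 of the 81, and its median was -0.42, against -0.04 over all genes tested; 17.2% of all genes lay below the median of the chain. The medians of the complexes lay close together: 19 of 38 genes fell in complex I (median -0.42), 2 of 4 in complex II (-0.42), 5 of 8 in complex III (-0.48), 6 of 14 in complex IV (-0.46) and 4 of 17 in complex V (-0.41).

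The size and count of the fall depended on a few libraries. Median log2 CPM over the chain was 6.50, 6.82, 6.51, 6.43, 5.83 and 5.81 in DSS PBS libraries 1 to 6, so library 2 lay within the range of water controls and libraries 5 and 6 far below it. Genes lower than in every water control numbered 44, 10, 53, 55, 77 and 76 of 81 in those libraries, where 25.4%, 29.0%, 22.7%, 23.5%, 32.6% and 35.4% of all genes were lower. With libraries 1 to 4 alone, 3 genes fell and 0 rose, a share below that of all genes changed in that fit (count given at the end). Of 81 log2 fold changes 77 were still below 0, and the median was -0.22. Leaving out library 5 left 8 falling genes, leaving out library 6 left 9, and leaving out water control 5, the highest of its group, left 9. The share of all genes in those fits is not given here. The fit of the compared groups alone called 2 falls and 1 rise, also below the share of all genes (count given at the end). The summed colonocyte, fibroblast and keratinocyte markers given above move with libraries 5 and 6, and their part in the fall was not tested.

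**Figure D2:**
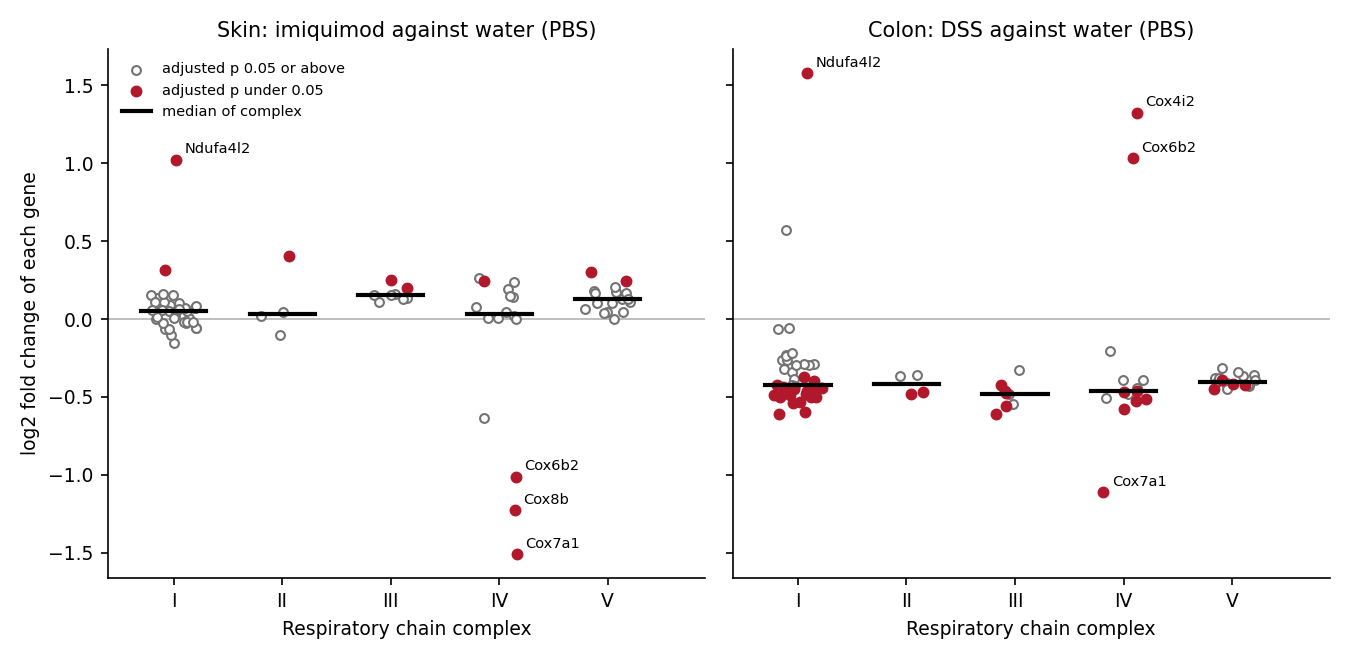
Log2 fold change of each respiratory chain gene (y axis) under IMQ in skin and DSS in colon, both against water with PBS, by complex (x axis); a point is 1 gene, filled where the adjusted p is under 0.05, and lines show the median of each complex. In colon 77 of 81 points lie below 0 with a median of -0.42, and in skin the median is 0.07.

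Complex I, the entry point of electrons from NADH, was represented in the fall by accessory and core subunits. Ndufb10 (GRCm38.p6, as for all positions here, chr17:24722060-24724423), an accessory subunit of its membrane arm, stood at 75.8, 72.9, 78.3, 91.2 and 119 CPM in water controls and at 37.3, 61.6 and 79.6 CPM (lowest, median, highest of 6) under DSS with PBS. The groups overlapped through DSS library 2, and the 2 lowest values were those of libraries 5 and 6. Ndufb10 fell by -0.61 ± 0.15 (log2 fold change ± SE, adjusted p 0.00422), and by -0.39 with libraries 1 to 4 alone (adjusted p 0.0384). Ndufb4, another membrane arm subunit, had 79.1, 62.2, 60.7, 62.3 and 87.2 CPM in water and 31.2, 48.5 and 64.3 CPM under DSS, and fell by -0.60 ± 0.17 (adjusted p 0.0108), but changed by -0.37 with libraries 1 to 4 alone (adjusted p 0.098). Here too only DSS library 2 reached the range of the controls.

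Among the conserved core subunits of complex I, Ndufs1, Ndufs7, Ndufv1 and Ndufv2 fell, and Ndufs3 and Ndufs8 did not pass. Ndufv1, which binds NADH, stood at 136, 125, 127, 146 and 154 CPM in water and 72.1, 106 and 137 CPM under DSS, a change of -0.45 ± 0.13 (adjusted p 0.00925). Ndufs7, whose start carries the YY1 letters shown above, changed by -0.50 ± 0.16 (adjusted p 0.0196), Ndufs1 by -0.44 ± 0.14 (0.0212) and Ndufv2 by -0.48 ± 0.15 (0.0181). Ndufs3 and Ndufs8 had log2 fold changes of -0.24 and -0.22 (adjusted p 0.171 and 0.199). With DSS libraries 1 to 4 alone none of these core subunits passed, Ndufv1, Ndufs7, Ndufs1 and Ndufv2 having changes of -0.26, -0.30, -0.28 and -0.26 (adjusted p 0.0864, 0.156, 0.161 and 0.15).

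In complex II, Sdha (chr13:74322255-74350240) separated the groups without overlap. It stood at 420, 409, 427, 408 and 405 CPM in water and at 208, 297 and 380 CPM under DSS with PBS. No DSS library reached the lowest control. Sdha fell by -0.48 ± 0.12 (adjusted p 0.00372) and by -0.33 with libraries 1 to 4 alone (adjusted p 0.0394), and it fell in the fit of the compared groups alone as well (-0.47, adjusted p 0.0407). Sdhb, the iron-sulfur subunit, fell by -0.47 ± 0.16 (adjusted p 0.0237; -0.24 and 0.196 with libraries 1 to 4 alone), while the membrane anchors Sdhc and Sdhd, at -0.36 each, did not pass (adjusted p 0.0742 and 0.119).

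In complex III, Uqcrb, a small subunit near the ubiquinone site, had 161, 128, 134, 149 and 181 CPM in water and 63.8, 110 and 126 CPM under DSS. The groups did not overlap, although the highest DSS library lay just below the lowest control. Uqcrb fell by -0.61 ± 0.18 (adjusted p 0.0137) and Uqcrfs1, the Rieske iron-sulfur protein, by -0.56 ± 0.17 (adjusted p 0.0157); with DSS libraries 1 to 4 alone their changes were -0.36 and -0.33 (adjusted p 0.12 and 0.132).

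Complex IV moved in both directions. Cox7a1 (chr7:30184171-30186030), the heart and muscle form of subunit 7a, had the largest fall of the chain: 19.7, 13.2, 16.2, 9.83 and 24.7 CPM in water against 3.18, 8.42 and 11.4 CPM under DSS. Only water control 4 lay inside the range of the DSS libraries. The change was -1.11 ± 0.28 (adjusted p 0.00465), and -0.75 with libraries 1 to 4 alone (adjusted p 0.0334). Its widely expressed partner Cox7a2 changed by -0.39 (adjusted p 0.108). Cox6c, a small structural subunit, had 200, 159, 159, 183 and 268 CPM in water and 83.6, 135 and 172 CPM under DSS, with overlap, and fell by -0.58 ± 0.20 (adjusted p 0.0267); Cox4i1, the main regulatory subunit 4, fell by -0.51 ± 0.18 (adjusted p 0.0309). With libraries 1 to 4 alone neither passed, at -0.33 and -0.26 (adjusted p 0.205 and 0.227).

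In complex V, Atp5b stood at 1237, 1144, 1240, 1254 and 1313 CPM in water and at 596, 994 and 1121 CPM under DSS with PBS, without overlap. It fell by -0.42 ± 0.14 (adjusted p 0.0204). Atp5a1, the alpha subunit that alternates with it in the catalytic head, fell by -0.39 ± 0.15 (adjusted p 0.0411), as did Atp5c1, the central stalk, by -0.42 and Atp5h, a peripheral stalk subunit, by -0.45. With libraries 1 to 4 alone none of the 4 passed, with changes of -0.22, -0.18, -0.22 and -0.25 for Atp5b, Atp5a1, Atp5c1 and Atp5h (adjusted p 0.158, 0.291, 0.177 and 0.234). The other 13 genes of complex V had log2 fold changes between -0.45 and -0.31 and did not pass, a range that overlaps that of the 4 that did.

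Over the whole chain the falls other than that of Cox7a1 lay between -0.61 (Ndufb10) and -0.37 (Ndufb11). Among the genes that did not pass, the lowest was Uqcr10, a small subunit of complex III, at -0.54, and the values nearest 0 were those of Ndufa4 (-0.06) and Ndufs4 (-0.06).

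The 3 genes that rose under DSS were minor forms of low abundance. Ndufa4l2 (chr10:127509274-127517154), a hypoxia-induced relative of Ndufa4, stood at 1.48, 1.18, 1.44, 1.27 and 2.37 CPM in water and at 1.34, 3.22, 1.56, 2.45, 3.31 and 15.9 CPM in DSS PBS libraries 1 to 6. The groups overlapped, and library 6 alone was far above the rest. Ndufa4l2 changed by 1.58 ± 0.48 (adjusted p 0.0142), and without library 6 by 0.62 (adjusted p 0.134).

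Cox4i2 (chr2:152753916-152765039), the oxygen-responsive form of subunit 4, had 1.11, 1.01, 1.18, 1.49 and 1.56 CPM in water and 0.764, 2.09, 1.20, 3.53, 3.14 and 8.35 CPM in DSS libraries 1 to 6. DSS library 6 was again the highest and library 1 the lowest of all 11. The change was 1.32 ± 0.42 (adjusted p 0.0174), and 0.77 without library 6 (adjusted p 0.101). Cox6b2 (chr7:4751792-4753094), known as the testis form of subunit 6b, had 1.91, 2.31, 1.82, 3.11 and 2.12 CPM in water and 3.12, 4.30, 3.19, 3.47, 5.09 and 8.46 CPM under DSS. Every DSS library lay above every control, but the closest pair stood at 3.12 and 3.11 CPM. Cox6b2 rose by 1.03 ± 0.29 (adjusted p 0.00816) and without library 6 by 0.78 (adjusted p 0.033), but libraries 1 to 4 alone gave 0.65 (adjusted p 0.0978).

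**Figure D3:**
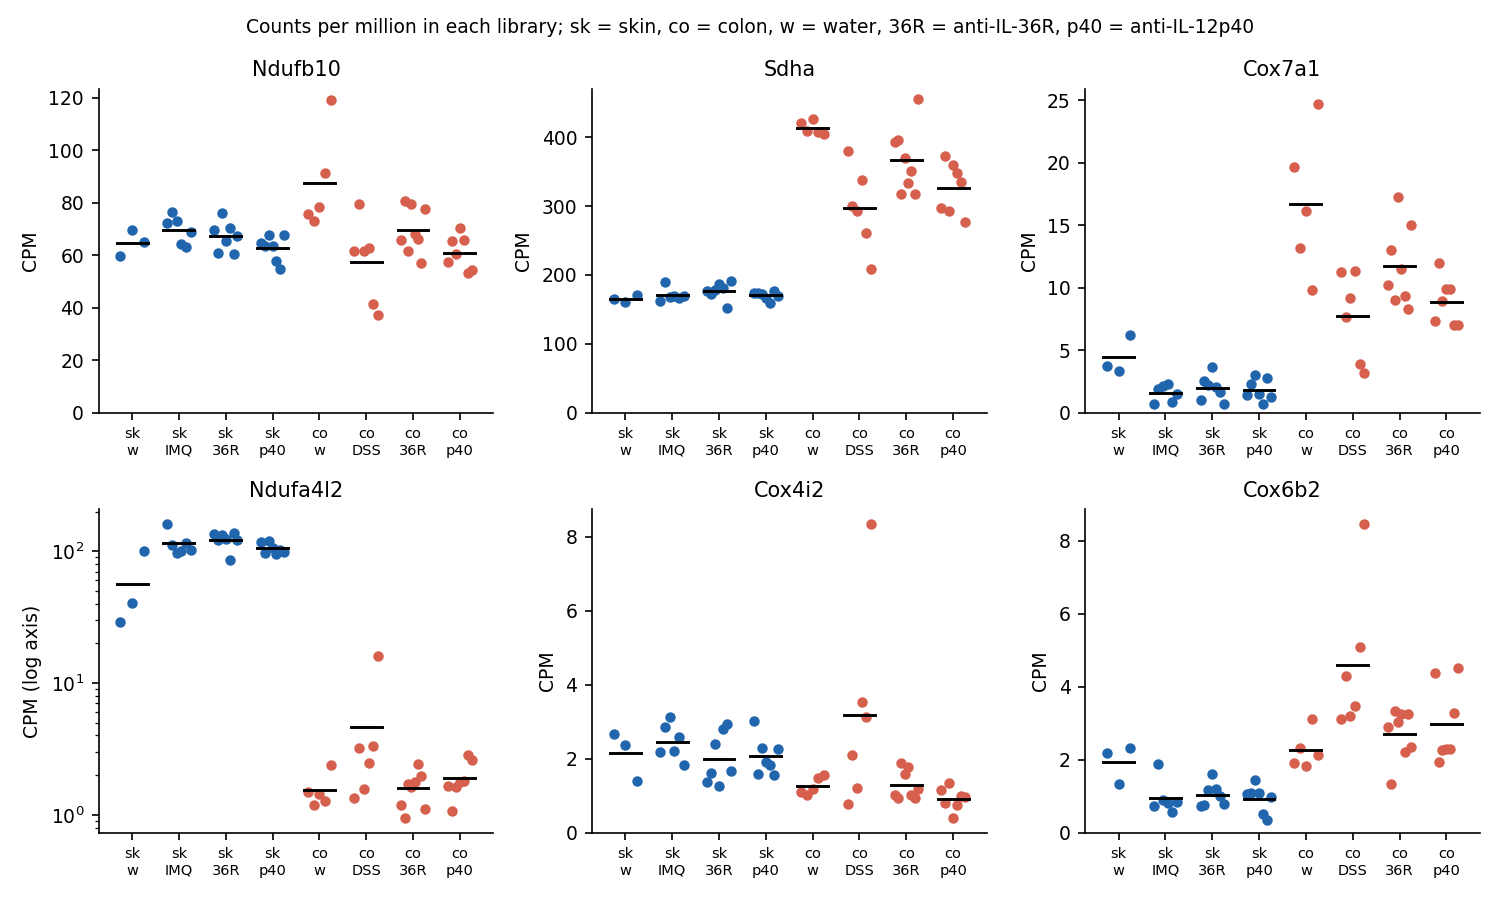
CPM of 6 respiratory chain genes (y axis, on a log scale for Ndufa4l2) in each library, by group (x axis; sk is skin, co is colon, w is water, 36R and p40 are the antibodies under IMQ or DSS); a point is 1 library and a bar the group mean. Sdha in DSS PBS libraries lies below all 5 water controls, and Ndufa4l2 shows a single high DSS PBS library at 15.9 CPM.

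With anti-IL-36R under DSS few genes of the chain differed from DSS with PBS. Its median log2 fold change was 0.17, against 0.00 over all genes, and 75 of 81 values were above 0; against PBS libraries 1 to 4 alone the median was -0.04 and 23 of 81 were above 0, so this direction rested on PBS libraries 5 and 6. None of the genes rose and 2 fell, Ndufa4l2 and Cox4i2, where 6.51% of all genes changed. An unadjusted p under 0.05 was found for 14 genes of the chain and for 3637 of all 15731. Ndufa4l2 stood at 0.944, 1.68 and 2.44 CPM (lowest, median, highest of 8) with the antibody, mostly within the range of water controls. It changed by -1.53 ± 0.41 against PBS (adjusted p 0.0231), and by -0.59 without PBS library 6 (adjusted p 0.308). Cox4i2 stood at 0.930, 1.10 and 1.89 CPM and changed by -1.30 ± 0.36 (adjusted p 0.0285), and by -0.75 without library 6 (adjusted p 0.224). Both calls thus depended on PBS library 6. Sdha stood at 317, 360 and 455 CPM with anti-IL-36R, a change of 0.31 ± 0.11 that did not pass (adjusted p 0.0888).

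With anti-IL-12p40 under DSS, 1 of 81 genes changed, where 0.998% of all genes did. The median over the chain was 0.03 (-0.17 against PBS libraries 1 to 4 alone). An unadjusted p under 0.05 was found for 7 genes of the chain and for 1892 of all 15731. The gene past the threshold was Cox4i2, at 0.402, 0.956 and 1.34 CPM with the antibody (lowest, median, highest of 7). It changed by -1.79 ± 0.38 (adjusted p 0.0215), and by -1.23 without PBS library 6 (adjusted p 0.13). Ndufa4l2, at 1.06, 1.78 and 2.84 CPM, changed by -1.28 ± 0.42 and did not pass (adjusted p 0.168). The antibody comparisons share the 6 PBS libraries.

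The antibody groups were also set against the same 5 water controls. DSS with anti-IL-36R had 0 genes of the chain past the threshold (9.87% of all genes, lowest adjusted p of the chain 0.0708), a median of -0.24 and 77 of 81 values below 0. In that comparison 14 genes of the chain and 3835 of all 15731 had an unadjusted p under 0.05. DSS with anti-IL-12p40 had 14 that fell and 0 that rose (17.2% of all genes, 10.8% up and 6.39% down), with a median of -0.37. The 14 were Atp5h, Cox4i1, Cox7a1, Ndufa1, Ndufa11, Ndufb10, Ndufb11, Ndufb4, Ndufs5-ps, Ndufv1, Ndufv2, Sdha, Uqcr10 and Uqcrb. The difference between the antibodies themselves was not detected: 0 genes of the chain and 0.0% of all genes differed between them (edgeR, and 0 of the chain with DESeq2 or limma-voom). At an unadjusted p under 0.05 were 0 genes of the chain and 547 of all 15731. Anti-IL-36R minus anti-IL-12p40 had a median of 0.14 over the chain.

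Libraries also varied within the antibody groups. Genes lower than in every water control numbered 44, 10, 61, 8, 58, 62, 71 and 5 of 81 in the 8 libraries given anti-IL-36R, and 65, 16, 64, 23, 56, 70 and 74 in the 7 libraries given anti-IL-12p40. Of all genes, 16.6% to 25.0% and 20.1% to 29.8% were lower in the libraries of these groups. The anti-IL-36R libraries with 10, 8 and 5 such genes and the anti-IL-12p40 library with 16 lay below the share over all genes, and the others above it.

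In skin, few genes of the chain changed under IMQ. Of 82 genes 8 rose and 3 fell against water controls. Of all genes 32.9% changed, with 15.5% of all genes up and 17.4% down. The share of the chain was thus below the background in both directions. The median log2 fold change was 0.07, against -0.03 over all genes. Of the chain 20 genes had an unadjusted p under 0.05, and of all 15345 genes 6851 did. By complex, 2 of 37 genes rose in complex I (median 0.05), 1 of 4 in complex II (0.03), 2 of 8 in complex III (0.16) and 2 of 17 in complex V (0.13), and complex IV had 1 rise and 3 falls in 16 (0.03). All 17 complex V genes had values above 0.

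Ndufa8 (chr2:36036324-36049338), a complex I accessory subunit that is imported and folded in the intermembrane space, had the lowest adjusted p of the chain under IMQ. It stood at 44.1, 46.0 and 43.7 CPM in water and at 53.6, 55.1 and 58.7 CPM (lowest, median, highest of 6) under IMQ with PBS. The groups did not overlap. Ndufa8 rose by 0.31 ± 0.06 (adjusted p 0.00146). It passed with IMQ PBS replicates 1 to 3 or 4 to 6 alone, in the fit of the compared groups alone and without any 1 of the water controls.

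Sdhd (chr9:50596340-50603849) also passed in each of those fits. It stood at 63.6, 51.6 and 52.7 CPM in water and 61.9, 76.0 and 80.3 CPM under IMQ, so that 1 library of each group overlapped, and it rose by 0.41 ± 0.10 (adjusted p 0.0035). The other 3 subunits of complex II had log2 fold changes of 0.05, -0.10 and 0.02 (Sdha, Sdhb and Sdhc), none past the threshold. Atp5g1, 1 of the genes of the c subunit, had 65.0, 70.1 and 65.2 CPM in water and 79.0, 82.1 and 86.4 CPM under IMQ without overlap, and rose by 0.30 ± 0.08 (adjusted p 0.00776). Uqcrfs1 had 82.5, 92.6 and 87.6 CPM in water and 96.2, 105 and 113 CPM under IMQ, also without overlap, and rose by 0.25 ± 0.07 (adjusted p 0.0132). Uqcrc1, Cox5b and Atp5mpl rose by 0.20 to 0.24.

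Ndufa4l2 had the largest rise in skin. It stood at 28.9, 40.2 and 99.6 CPM in water and at 96.3, 107 and 162 CPM under IMQ. Water control 3 reached into the IMQ range, and the other two controls were well below it. The change was 1.02 ± 0.26 (adjusted p 0.00523), and 1.73 without water control 3. The fit of the compared groups alone gave an adjusted p of 0.0583. Counts of Ndufa4l2 were fractional in 60.9% of skin libraries, so some of its reads were shared with other genes.

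The 3 genes that fell under IMQ were minor forms of complex IV subunits. Cox7a1 had 3.76, 3.31 and 6.25 CPM in water and 0.678, 1.67 and 2.28 CPM under IMQ, and Cox8b (chr7:140898942-140900446), a form of subunit 8 found in muscle and brown fat, had 6.76, 8.67 and 11.1 CPM in water and 1.15, 4.23 and 5.03 CPM under IMQ. Neither overlapped between the groups. The changes were -1.51 ± 0.44 (adjusted p 0.0123) and -1.23 ± 0.41 (adjusted p 0.025). Cox6b2 had 2.18, 1.32 and 2.31 CPM in water and 0.561, 0.836 and 1.88 CPM under IMQ, with overlap, and fell by -1.01 ± 0.36 (adjusted p 0.0338). Cox6a2, the muscle form of subunit 6a, changed by -0.63 ± 0.36 and did not pass (adjusted p 0.176).

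Summed markers of muscle and brown fat were also lower under IMQ in these libraries. Summed skeletal muscle markers stood at 3867 to 8384 CPM in water and 1397 to 3643 CPM under IMQ with PBS. Of 18 markers 4 fell, among them myoglobin (Mb, -2.81 ± 0.50), and the others did not pass. That share was near the 17.4% of all genes that fell. Summed brown adipocyte markers, a list that holds Cox8b, stood at 231 to 414 CPM and 64.1 to 194 CPM, with 5 of 6 tested markers falling. Among genes expressed in brown fat, Cidea was higher than in IMQ with PBS by 1.17 with anti-IL-36R and 1.12 with anti-IL-12p40. Elovl3 was higher by 2.24 and 2.07, all 4 changes past the threshold. Dio2, Zic1, Ppargc1a, Cox8b and Cox7a1 did not pass with either antibody. The part of muscle and brown fat in the falls of Cox7a1 and Cox8b was not tested.

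The count in skin depended on single water controls and on the replicates used. Without water control 1, 2 or 3 the genes past the threshold numbered 6, 27 and 5, and IMQ PBS replicates 1 to 3 alone gave 12 rises and 0 falls, while replicates 4 to 6 alone gave 3 and 2. The fit of the compared groups alone gave 4 and 2. The shares of all genes past the threshold in these fits are not given here. Genes above every water control numbered 56, 42, 30, 21, 16 and 18 of 82 in IMQ PBS libraries 1 to 6, where 35.9%, 31.0%, 28.9%, 29.9%, 31.3% and 28.6% of all genes were above. Libraries 1 to 3 thus lay above that share, and libraries 4 to 6 below it.

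Few of these genes differed with either antibody in inflamed skin. With anti-IL-36R, 0 of 82 differed from IMQ with PBS, where 4.09% of all genes did (edgeR, lowest adjusted p 0.229, 1 gene past the threshold with limma-voom), and the median was -0.04. In that comparison 1 gene of the chain and 3286 of all 15345 had an unadjusted p under 0.05. With anti-IL-12p40, 1 gene fell, where 8.72% of all genes changed, and the median was -0.09. Here 17 genes of the chain and 3871 of all 15345 had an unadjusted p under 0.05. The gene that fell was Ndufa8, at 44.8, 48.6 and 52.6 CPM with the antibody (lowest, median, highest of 7), all below the lowest IMQ PBS library. It fell by -0.18 ± 0.05 (adjusted p 0.0278). Against PBS replicates 1 to 3 alone it changed by -0.22 (adjusted p 0.072) and against replicates 4 to 6 alone by -0.17 (adjusted p 0.183).

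Between the antibodies, 0 genes of the chain differed in skin, where 0.0456% of all genes did (edgeR, and 0 of the chain with DESeq2 or limma-voom). At an unadjusted p under 0.05 were 2 genes of the chain and 806 of all 15345. Against water controls, anti-IL-36R with IMQ had 3 genes that rose (13.1% of all genes) and a median of 0.05, and anti-IL-12p40 with IMQ had 1 (4.75% of all genes) and a median of -0.01. The 1 gene was Ndufa4l2, which rose by 0.90 ± 0.25 (adjusted p 0.0411). Its medians under IMQ were 107 CPM with PBS, 123 CPM with anti-IL-36R and 103 CPM with anti-IL-12p40, with overlapping ranges.

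The disease changes of the chain differed between the experiments when the difference itself was tested. In the fit of both tables, 38 of 83 genes had a higher log2 change under IMQ in skin than under DSS in colon and 1 a lower change, where 22.3% of all genes differed, 8.95% higher and 13.4% lower. The median difference was 0.54, against 0.01 over all genes. The 38 comprised 14 of 38 genes in complex I, 2 of 4 in complex II, 6 of 8 in complex III, 4 of 16 in complex IV and 12 of 17 in complex V. Uqcrfs1, which rose in skin and fell in colon, differed by 0.85 ± 0.22 (adjusted p 0.00357) and Sdhd by 0.81 ± 0.23 (adjusted p 0.0083). With DSS PBS libraries 1 to 4 alone, 7 genes were higher and 1 lower, and Uqcrfs1 differed by 0.62 (adjusted p 0.0164). The share of all genes in that fit is not given here.

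The gene with the lower change in skin was Cox6b2, which fell under IMQ and rose under DSS. The difference was -1.99 ± 0.46 (adjusted p 0.00137), -1.73 without DSS PBS library 6 (adjusted p 0.00437) and -1.62 with libraries 1 to 4 alone (adjusted p 0.0114). The response to anti-IL-36R differed between tissues for 1 gene of the chain (5.13% of all genes), Ndufa4l2, by 1.60 (adjusted p 0.0303), and without DSS PBS library 6 by 0.64 (adjusted p 0.363). The response to anti-IL-12p40 differed for 0 of 83 (1.84% of all genes, edgeR, and 1 of the chain past the threshold with DESeq2). An unadjusted p under 0.05 was found there for 7 genes of the chain and for 2407 of all 16818.

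Other genes of mitochondrial energy metabolism also fell in colon under DSS, where 14.6% of all genes fell. The count of all genes changed with libraries 1 to 4 alone is given at the end. All 13 protein genes of mitochondrial DNA fell under DSS (median -0.67), with COX1 at -0.73 ± 0.22 and ND6 at -0.72 ± 0.16; 4 of the 13 fell with DSS libraries 1 to 4 alone, 2 in the fit of the compared groups alone, and 5 without water control 5, whose summed mitochondrial DNA genes were the highest of the colon controls at 129500 CPM. Of 21 genes of the tricarboxylic acid cycle and pyruvate entry 19 fell (median -0.51; 6 with libraries 1 to 4 alone), among them Idh3a, a catalytic subunit of isocitrate dehydrogenase, at -0.82 ± 0.17, and Sucla2, a succinyl-CoA ligase subunit, at -0.59 ± 0.06. Of 21 genes of fatty acid oxidation 14 fell (median -0.53; 7 with libraries 1 to 4 alone). Assembly factors of the chain fell in 15 of 45 (median -0.32; 5 with libraries 1 to 4 alone), with Lyrm7, an assembly factor for the Rieske protein of complex III, at -0.88 ± 0.24, and mitochondrial ribosomal proteins in 18 of 76 (median -0.20; 0 with libraries 1 to 4 alone). Of the genes named here, ND6, Idh3a, Sucla2 and Lyrm7 passed with libraries 1 to 4 alone and COX1 did not (adjusted p 0.103).

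Regulators of mitochondrial biogenesis changed in both tissues. Of all genes 14.6% fell and 17.6% rose in colon under DSS, and 17.4% fell and 15.5% rose in skin under IMQ. In colon 11 of 20 fell, 1 rose and 8 did not pass under DSS (6 fell and 1 rose with libraries 1 to 4 alone), with Ppara, a receptor for fatty acids that drives their oxidation, at -1.85 ± 0.33, the coactivator Ppargc1a at -1.51 ± 0.32 and Hif1a, the oxygen-regulated transcription factor, at 1.16 ± 0.26; all 3 passed with libraries 1 to 4 alone (-1.54, -1.16 and 0.97). In skin under IMQ, Ppara changed by -1.86 ± 0.42, Ppargc1a by -1.51 ± 0.35 and Hif1a by 1.06 ± 0.22. Tfb1m also fell there, by -0.35, and Myc, Pprc1 and Yy1 rose by 0.56, 0.43 and 0.22. Other regulators went opposite ways: Ppard, a related receptor, rose by 0.97 ± 0.20 in skin and fell by -0.66 ± 0.18 in colon, and the coactivator Ppargc1b rose by 0.61 ± 0.18 and fell by -0.80 ± 0.22. The changes in skin and colon differed by 1.67 for Ppard (adjusted p 2.27e-05) and 1.45 for Ppargc1b (adjusted p 0.000755). In inflamed skin Ppara was higher than with PBS by 1.23 ± 0.35 with anti-IL-12p40 (adjusted p 0.0329) and had a difference of 1.21 ± 0.35 with anti-IL-36R that did not pass (adjusted p 0.0538), and Ppard fell with both, by -0.63 ± 0.15 and -0.53 ± 0.15 (adjusted p 0.0113 and 0.0454).

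Many glycolysis and hypoxia genes rose in skin under IMQ, where 15.5% of all genes rose and 17.4% fell. Of 21 glycolysis genes 16 rose and 3 fell under IMQ (median 0.75), with the lactate exporter Slc16a3 at 2.11 ± 0.38 and the glucose transporter Slc2a1 at 1.66 ± 0.27, and of 18 hypoxia response genes 14 rose and 0 fell (median 0.92), with the carbonic anhydrase Car9 at 1.94 ± 0.40. Mitochondrial ribosomal proteins rose in 24 of 76 (median 0.21), and 0 of the 13 mitochondrial DNA genes changed (median -0.14). In colon under DSS, where 17.6% of all genes rose and 14.6% fell, glycolysis genes rose in 4 and fell in 2 of 21 (median 0.11). Hypoxia genes rose in 4 and fell in 1 of 18 (median 0.14). The rises in both lists thus lay near the share of all genes. With libraries 1 to 4 alone the counts were 2 and 2 for glycolysis and 1 and 1 for hypoxia. Slc16a3 rose in colon by 2.68 ± 0.45, and by 1.77 with libraries 1 to 4 alone. With anti-IL-12p40 in inflamed skin 6 of 21 glycolysis genes fell and 1 rose against PBS, and 6 of 18 hypoxia genes fell, among them Ndrg1 at -0.92 ± 0.26, where 8.72% of all genes changed. With anti-IL-36R in skin 1 glycolysis gene rose and 0 hypoxia genes changed (4.09% of all genes), and Ndrg1 had a difference of -0.75 that did not pass (adjusted p 0.1). In colon, 2 genes of each list fell with anti-IL-36R (6.51% of all genes), and 1 glycolysis and 0 hypoxia genes fell with anti-IL-12p40 (0.998%). Slc16a3 fell with both antibodies, by -1.64 ± 0.37 and -1.58 ± 0.38 (adjusted p 0.00749 and 0.0441). Ero1a, an oxidase of protein folding, fell by -0.63 ± 0.16 with anti-IL-36R (adjusted p 0.0201) and had a difference of -0.66 ± 0.17 with anti-IL-12p40 (adjusted p 0.0533). Against PBS libraries 1 to 4 alone neither gene passed with either antibody. Summed neutrophil markers moved too, from 9.40 to 85.9 CPM in water colon to 245 to 3663 CPM under DSS with PBS and 107 to 288 CPM with anti-IL-36R, and their part in these lists was not tested.

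**Figure D4:**
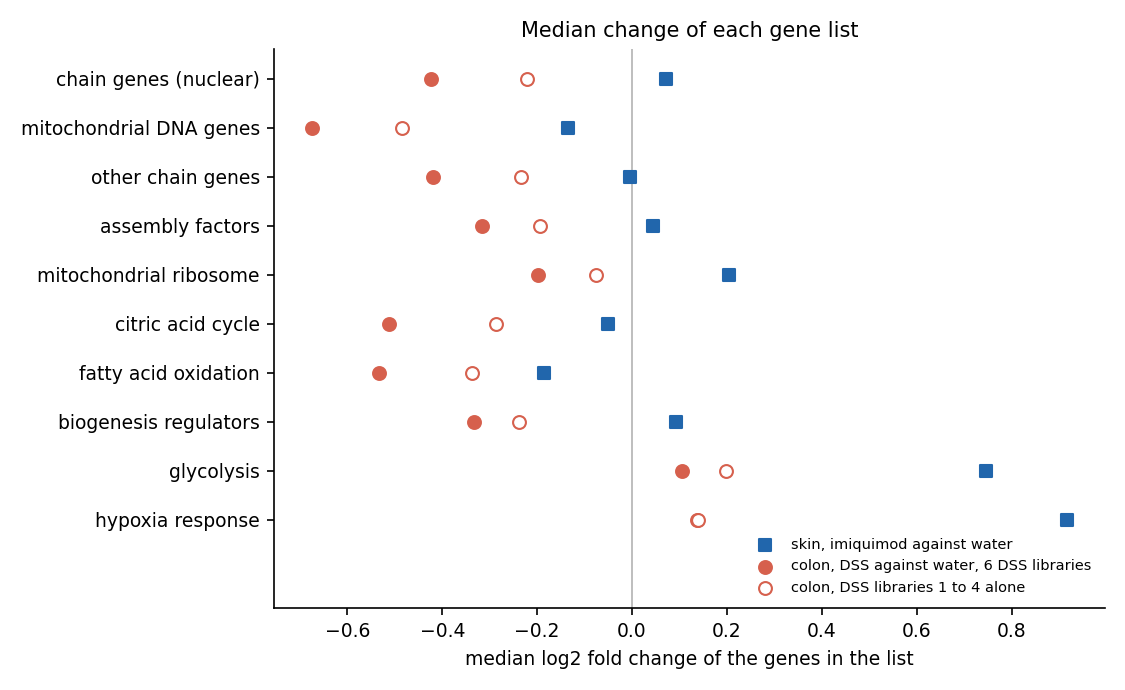
Median log2 fold change (x axis) of the respiratory chain genes and of 9 related gene lists (y axis) under IMQ in skin and DSS in colon, both against water with PBS, with colon also shown for DSS PBS libraries 1 to 4 alone. The chain lies at 0.07 in skin, -0.42 in colon and -0.22 with libraries 1 to 4 alone, and the mitochondrial DNA genes are the lowest list in colon at -0.67.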

How the data were processed

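Messenger RNA was purified with Dynabeads and sequenced as strand-specific libraries, per the labels' protocols. The authors estimated expected counts per gene with RSEM on mm10, per the submitters' processing notes, and deposited 1 table per tissue; versions and the annotation are not given in the sources used here. A symbol was found for 24375 of the 24475 gene IDs. Expected counts were not whole (tolerance 0.001) for 16.47% of skin and 17.15% of colon values and were rounded.

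All 4 groups of a tissue entered 1 edgeR 4.0.16 fit in R 4.3.3 (filterByExpr by group, TMM, robust quasi-likelihood F tests), over 15345 genes in skin and 15731 in colon, and all 8 groups entered a joint fit over 16818. Adjusted p is Benjamini-Hochberg over all genes tested, SEs were derived from F and the fitted change, and log2 CPM used a prior count of 2. With 3 to 8 libraries a group, small changes can be missed. Described genes were, among those past the threshold, the 5 highest and 5 lowest per disease comparison and 3 and 3 per antibody comparison, with isoform pairs, complex II and the complex I core, and up to 4 genes per list. The genes of the chain, 9 pathway and 13 marker lists and the tests were chosen with earlier results of these data known. Lists were counted, not tested as sets. The individual values of 1 gene are not reported here. Alternatives were DESeq2 1.42.0 (size factors; Wald test), limma 3.58.1 voom, no filter, compared groups alone, subsets of PBS libraries and leaving out each library; edgeR without robust estimation and DSS PBS libraries 1 to 4 alone were added after seeing the data. The fits were tested on simulated data. Plots used Python 3.11.15 and matplotlib 3.10.9.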

Additional observations from a re-analysis of the deposited data

Results flagged for a closer look

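Of 231 groups of 4 to 10 libraries tested for a single extreme value among the described genes, 16 held one, and chance alone is expected to give about 1 in 20. In colon water controls a high library stood out for Atp5g2 (195 CPM), Cox7a2l (212 CPM), Cox8b (0.988 CPM) and Ndufa4l2 (2.37 CPM). Under DSS with PBS it was the high library for Cox4i2 (8.35 CPM), Cox6b2 (8.46 CPM) and Ndufa4l2 (15.9 CPM), in each case library 6. Cox8b, near its detection limit in colon, had a high library with anti-IL-36R (0.349 CPM) and with anti-IL-12p40 (1.75 CPM) under DSS. In skin under IMQ with PBS the high library was that of Cox6b2 (1.88 CPM), Ndufa4l2 (162 CPM) and Sdha (190 CPM). With anti-IL-36R under IMQ, Atp5g3 (234 CPM) and Uqcrfs1 (114 CPM) had a high library, and Ndufa4l2 (85.5 CPM) and Ndufs3 (47.1 CPM) a low one.

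A disease change that differed between skin and colon, tested as an interaction in the joint edgeR fit (log2, IMQ in skin minus DSS in colon), was found for 16 described genes: Uqcrfs1 (0.85), Sdhd (0.81), Cox6a1 (0.76), Ndufb10 (0.76), Uqcrb (0.76), Atp5g1 (0.75), Cox6b1 (0.69), Ndufb4 (0.69), Atp5g3 (0.64), Ndufs7 (0.64), Ndufa8 (0.62), Sdha (0.57), Ndufv1 (0.55), Ndufs1 (0.54), Ndufv2 (0.50) and Cox6b2 (-1.99). The response of Ndufa4l2 to anti-IL-36R differed by 1.60 and did not pass without DSS PBS library 6 (0.64, adjusted p 0.363).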

How the results depend on the processing

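Counts are genes of the chain past the threshold in either direction. The matching counts over all genes are given only for the fits named in the next paragraph. Leaving out 1 library at a time gave 5 to 27 for IMQ against water (main 11), 10 to 69 for DSS against water (main 39), 15 to 56 for the difference of the disease changes (main 39) and 51 to 65 for water skin against water colon (main 63). Against PBS it gave 0 to 5 for anti-IL-12p40 under IMQ, 0 to 6 for anti-IL-36R under DSS and 0 to 1 for anti-IL-12p40 under DSS. Against water it gave 1 to 6 and 0 to 1 for anti-IL-36R and anti-IL-12p40 under IMQ, and 0 to 1 and 2 to 36 under DSS. The differences between tissues in the response to anti-IL-36R and anti-IL-12p40 gave 0 to 9 and 0 to 4. Fits of the compared groups alone gave 6 for IMQ, 3 for DSS, 2 for anti-IL-12p40 under IMQ and 0 for either antibody under DSS; against water they gave 0 and 0 under IMQ and 4 and 22 under DSS. The DESeq2 Wald test gave 18 for IMQ, 4 for anti-IL-12p40 under IMQ, 6 for anti-IL-36R with IMQ against water, 1 and 22 for the antibody groups under DSS against water, and 1 for the tissue difference of anti-IL-12p40. Limma-voom gave 24 for DSS, 1 and 3 for the antibodies under IMQ, 0 and 0 under DSS, 1 for anti-IL-36R with IMQ against water, 8 and 34 under DSS against water, and 0 for the tissue difference of anti-IL-36R. Without the filter, anti-IL-12p40 with IMQ against water gave 0. DSS PBS libraries 1 to 4 alone gave 3 for DSS, 0 and 0 for the antibodies, 8 for the disease difference and 0 for that of anti-IL-36R. IMQ PBS replicates 1 to 3 alone gave 0 for anti-IL-12p40 and for the tissue difference of anti-IL-36R; replicates 4 to 6 alone gave 5 for IMQ, 0 for anti-IL-12p40, 8 for the disease difference and 0 for that of anti-IL-36R.

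Over all genes, DSS changed 5065 in the main fit, 2971 with PBS libraries 1 to 4 alone and 2888 with the compared groups alone, and anti-IL-36R under IMQ 628 and, with limma-voom, 2750. No described gene past the threshold in the main fit or in an alternative had the opposite sign in the other. The cause of these differences was not tested. No paired analysis was possible because replicates were numbered by order of deposit. Genes under about 3 CPM in at least 1 compared group (Cox4i2, Cox6b2, in colon Ndufa4l2 and Cox8b, and in skin Cox7a1) rest on few counts there.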
